A study of Homo sapiens with 6 samples.

Results

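The proteasome genes of HCT116, a human colorectal carcinoma cell line, were examined 48 h after an siRNA against CPT2 or a negative control siRNA (NC). CPT2 encodes a carnitine acyltransferase of the inner mitochondrial membrane that is needed to burn long-chain fatty acids. Members were the genes whose symbol begins with PSMA to PSMG followed by a digit, which gave 49 of the 24154 genes in the deposited table. They comprised 19 genes of the 20S core (PSMA and PSMB), 20 genes of the 19S regulatory particle and its assembly chaperones (PSMC and PSMD), 4 activators (PSME) and 5 genes for an inhibitor and the core assembly chaperones (PSMF1 and PSMG). The remaining match, PSMC3IP, encodes a meiotic recombination factor and no part of the proteasome, and it is given apart. Each group held 3 poly(A) RNA-seq libraries of the unmodified line, named NC 1 to 3 and CPT2 knockdown 1 to 3. The labels name no separate cultures behind the replicate numbers, so the p-values refer to the spread among these 6 libraries, part or all of which may be technical. The number of siRNA sequences was not given in the sources used here.

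The proteasome is the main protease of the cytosol and nucleus. The 20S core is a barrel of stacked rings, with outer alpha rings that gate the entrance and inner beta rings that carry the proteolytic sites on PSMB5, PSMB6 and PSMB7. The 19S particle caps the barrel: its PSMC ATPases unfold substrates and open the gate, and its PSMD subunits bind, deubiquitinate and position them. PSME proteins are alternative caps, and after interferon signalling PSMB8, PSMB9 and PSMB10 can replace the constitutive catalytic subunits to form the immunoproteasome. The transcription factor NFE2L1 is known to raise proteasome genes together when proteasome activity is short, through antioxidant response elements in their promoters.

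Those elements share the core TGACNNNGC, which was searched on both strands in the RefSeq promoter windows (GRCh38.p14, 250 bases before to 50 after each start). Of the 48 proteasome genes, 42 had at least 1 window, and PSMA7, PSMB1, PSMB6, PSMB7, PSMD4 and PSMG3 were not matched in the table used here. The core stood in 15 of 51 windows (29.4%), against 13.3% of all 35116 windows. Some genes have more than 1 window. By class the motif stood in 3 of 20 windows of 20S core genes, 7 of 21 windows of the 19S genes and 3 of 4 activator windows. Of 3 other motifs, the ETS core CCGGAAG was in 29.4% of the proteasome windows and 10.3% of all windows, the nuclear respiratory factor core was in 17.6% and 8.32%, and the CCAAT box was in 39.2% and 34.6%. The ETS core was most frequent among the 19S genes, with 10 of 21 windows. One promoter is shown for each of the core, the 19S particle and the activators, up to the gene start in the annotation, because each holds the antioxidant response element core, which is in capitals. All 3 lie on the plus strand, PSMB3 at chr17:38752491-38752735, PSMD3 at chr17:39980557-39980796 and PSME1 at chr14:24135944-24136157.
PSMB3: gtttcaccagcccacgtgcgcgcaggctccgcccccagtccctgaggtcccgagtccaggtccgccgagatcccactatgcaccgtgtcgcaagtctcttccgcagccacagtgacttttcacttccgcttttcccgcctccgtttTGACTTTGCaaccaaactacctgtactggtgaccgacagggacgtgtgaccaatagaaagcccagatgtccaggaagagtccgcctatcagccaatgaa
PSMD3: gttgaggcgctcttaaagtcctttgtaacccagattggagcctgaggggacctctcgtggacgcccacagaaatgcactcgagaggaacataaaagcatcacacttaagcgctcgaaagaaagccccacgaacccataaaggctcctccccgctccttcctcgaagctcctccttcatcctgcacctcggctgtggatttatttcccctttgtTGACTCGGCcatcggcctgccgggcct
PSME1: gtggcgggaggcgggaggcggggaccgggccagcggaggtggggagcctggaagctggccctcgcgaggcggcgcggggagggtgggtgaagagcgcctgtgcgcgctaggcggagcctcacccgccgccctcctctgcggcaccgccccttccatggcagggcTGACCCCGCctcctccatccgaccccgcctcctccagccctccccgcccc
The matches TGACTTTGC, TGACTCGGC and TGACCCCGC began 104, 37 and 86 bases before the RefSeq start. A match is a run of letters and was not tested as a binding site.

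Libraries held 28353790 to 29449380 counts. Proteasome genes took 0.516% to 0.577% of the counts in NC libraries and 0.550%, 0.533% and 0.646% in knockdown 1, 2 and 3. Mitochondrial genes took at most 10.8% in NC libraries but 17.0%, 15.6% and 8.99% in knockdown 1, 2 and 3. Knockdown 1 lay far from the other libraries on the axis of largest variance (53.2% of the total), and the part of either in the results below was not tested. CPT2 itself was at 23.6, 28.6 and 29.1 CPM (counts scaled to a library total that TMM had adjusted for composition) in NC 1, 2 and 3 and at 19.4, 21.3 and 18.96 CPM in knockdown 1, 2 and 3. These groups did not overlap, but the log2 fold change of -0.44 ± 0.17 (SE) did not pass (edgeR adjusted p = 0.338), and it was -0.43 after correction for the GC content and length of each gene's principal transcript and -0.44 without knockdown 1. The same correction with the longest transcripts gave 0.04. Of 10 colorectal epithelial markers, 4 reached a mean of 1 CPM. KRT8 (1126 CPM) and KRT18 (830 CPM) were abundant, EPCAM was at 2.68 to 4.32 CPM, CDH1 at 1.03 to 2.90 CPM, and CDX1 and CDX2 had no counts. The remaining markers of this list, VIL1, KRT20, KRT19 and LGALS4, had means of 0.02, 0.05, 0.52 and 0.73 CPM. Most of the list, with EPCAM, CDH1 and CDX2, was thus near or at 0, against the label of the line. The endothelial gene CDH5 was at 52.2 to 87.8 CPM and the fibroblast gene COL1A1 at 57.0 to 128 CPM, while PTPRC, CD3E, MS4A1, PECAM1 and COL3A1 were each below 1 CPM in every library. CD68, the remaining gene of the immune list, was at 20.4, 21.9 and 20.3 CPM in NC 1, 2 and 3 and at 28.3, 30.8 and 27.9 CPM in knockdown 1, 2 and 3, without overlap, and the part of these genes in the results was not tested. In bulk RNA, fewer cells of a type and less RNA per cell cannot be told apart.

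No proteasome gene passed the test between knockdown and control. Of the 47 members with enough counts, 0 had an adjusted p under 0.05 by edgeR's quasi-likelihood test with Benjamini-Hochberg adjustment, against a background of 2 of 15302 genes (0.0131%), and 0 passed with DESeq2 or limma-voom. Leaving out PSMC3IP, 35 of 46 proteasome genes had positive log2 fold changes (knockdown over control) and 11 negative ones, where 50.7% of all genes tested were positive. Their median was 0.22, beside 0.01 for all genes tested. An unadjusted p under 0.05 was reached by 4 of 46, namely PSMB3, PSMC3, PSMD3 and PSMD8, all with positive values, where 9.18% of all genes tested had such a p with a positive value and 5.29% with a negative one. All knockdown libraries lay above all NC libraries for 8 of 46 genes (12.2% of all genes tested) and below them for 1 of 46 (12.2% of all genes tested), and neither count is read as a result about these genes. The 95% confidence interval of the fold change lay within -1 to 1 on the log2 scale for 45 of 46 proteasome genes and for 9371 of the 15302 genes tested. The exception was PSMG3, with an upper bound of 1.18.

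**Figure D1:**
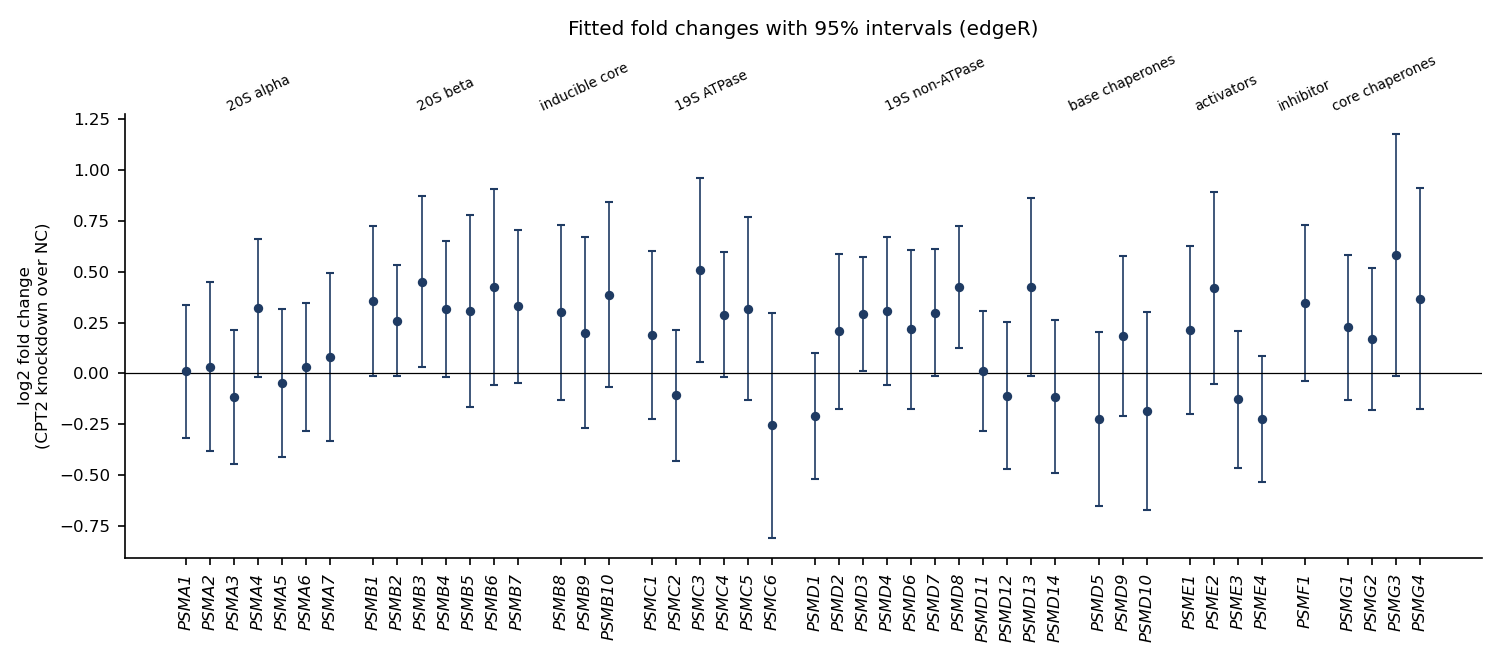
Fitted log2 fold change of each of 46 proteasome genes, CPT2 knockdown over NC (vertical axis), with its 95% confidence interval from the edgeR fit, ordered by role. Most points lie between 0 and 0.5, and the intervals of PSMB3, PSMC3, PSMD3 and PSMD8 are the 4 that do not reach 0.

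These counts moved with single libraries. Without knockdown 2, 19 of the 47 members had an unadjusted p under 0.05 and 0 were called by the edgeR adjusted p. Such an unadjusted p was then reached by 5615 of all 15635 genes tested. Without NC 2 no member had an unadjusted p under 0.05, and 503 of all 15585 genes tested did. Without knockdown 1, 40 of 47 members had positive values and 3 had an unadjusted p under 0.05, beside 1569 of all 15608 genes tested. Scaling by library size alone, which shifted the median of all genes by -0.13 on the log2 scale, left 30 of 47 positive, where the main scaling had 36 of 47.

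Levels were compared between genes per transcript length, as FPKM (fragments scaled to transcript length and to library size). The 17 detected core genes spanned 27.0 to 252 FPKM in NC libraries with a median of 82.2, and the 20 genes of the 19S group spanned 16.1 to 194 FPKM with a median of 41.0. PSMB4, a non-catalytic beta subunit at 252 ± 14.5 FPKM (SD, n = 3), was the most abundant core gene. PSMB7, which carries the trypsin-like site, followed at 252 ± 24.3 FPKM, and PSMA7, an alpha subunit, at 227 ± 25.4 FPKM, and these 3 did not differ beyond their spread. PSMC3 was the highest 19S gene at 194 ± 31.1 FPKM and overlapped PSMA7. At the low end, PSMB10 was at 27.0 ± 2.25 FPKM in the core and the base chaperone PSMD9 at 16.1 ± 1.88 FPKM in the 19S group. The activators ran from PSME4 at 19.7 ± 1.64 to PSME1 at 99.1 ± 9.37 FPKM, and the inhibitor PSMF1 and the assembly chaperone PSMG4 were lower still, at 10.5 ± 1.63 and 9.24 ± 2.32 FPKM. From lowest to highest, these RNA levels differed 9.34-fold in the core and 12.01-fold in the 19S group. Of the tissue-specific core genes, the testis subunit PSMA8 had 0 counts in every library, which allows up to 3 counts or 0.102 to 0.106 CPM, and the thymus subunit PSMB11 had 8 counts in NC 3 and 0 elsewhere.

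**Figure D2:**
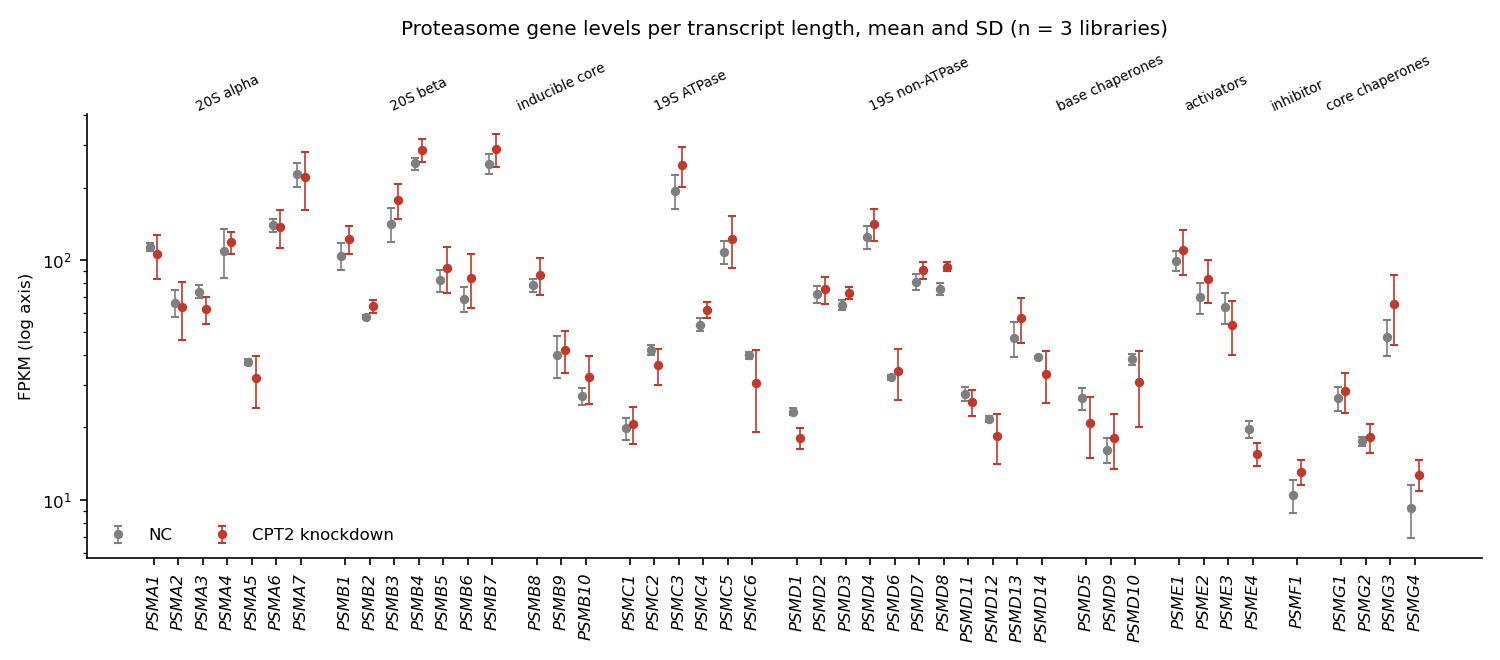
FPKM (log axis) of 46 proteasome genes by role, mean and SD of 3 NC (grey) and 3 CPT2 knockdown (red) libraries. PSMB4 and PSMB7 stand highest and PSMG4 lowest, and the red and grey points of a gene lie close together compared with the distances between genes.

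Within the 20S core, the beta ring and the alpha ring had different values. All 7 beta ring genes had positive log2 fold changes, from 0.26 to 0.45 with a median of 0.33. The 7 alpha ring genes ran from -0.12 to 0.32 with a median of 0.03, 5 positive and 2 negative. The difference between the rings was not tested. Median alpha ring values of log2 CPM, each gene set against its NC mean, were 0.09, -0.09 and -0.01 in NC 1, 2 and 3 and -0.16, -0.05 and 0.23 in knockdown 1, 2 and 3, so the groups overlapped. Beta ring medians were 0.15, -0.18 and 0.02 in NC libraries and 0.47, 0.08 and 0.47 in knockdown libraries, so knockdown 1 and 3 lay above every control and knockdown 2 within their range. The alpha ring median was -0.10 when libraries were scaled by size alone, and the beta ring median stayed positive at 0.19. The median of all genes was -0.13 under that scaling.

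PSMA4 had the smallest p of the alpha ring. It was at 255, 189 and 202 CPM in NC 1, 2 and 3 and at 271, 258 and 277 CPM in knockdown 1, 2 and 3. Knockdown libraries lay just above the highest control, and the log2 fold change came to 0.32 ± 0.15 (SE; edgeR adjusted p = 0.338). With GC and length correction it was 0.74, which did not pass either. With the replicate number as a block as well it was 0.72 and passed (edgeR adjusted p = 0.000781). PSMA3, another alpha subunit, was at 78.7, 67.1 and 69.4 CPM in controls and 64.1, 62.5 and 71.9 CPM after knockdown. Its groups overlapped, and its log2 fold change was -0.12 ± 0.15 (SE). PSMA7 was at 237, 199 and 249 CPM in controls and at 218, 202 and 303 CPM after knockdown. Its log2 fold change of 0.08 turned to -0.19 with GC and length correction and to -0.05 under scaling by library size alone, where the median of all genes was -0.13.

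Among the beta subunits, PSMB3, a non-catalytic subunit at chr17:38752736-38764231, had the smallest p. It was at 132, 91.9 and 106 CPM in NC 1, 2 and 3 and at 159, 123 and 169 CPM in knockdown 1, 2 and 3. Knockdown 2 lay below NC 1, so the groups overlapped. The log2 fold change was 0.45 ± 0.19 (SE; edgeR unadjusted p = 0.0385, adjusted p = 0.338), and 0.17 with GC and length correction. The non-catalytic PSMB1 was at 108, 82.4 and 103 CPM in controls and at 131, 108 and 137 CPM after knockdown, with knockdown 2 just above NC 1. PSMB4 was at 266, 228 and 246 CPM in controls and at 340, 260 and 323 CPM after knockdown, with knockdown 2 below NC 1. The log2 fold changes of PSMB1 and PSMB4 were 0.36 ± 0.16 and 0.32 ± 0.15 (SE), and with GC and length correction 0.19 and 0.07.

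The catalytic subunits behaved alike across libraries. PSMB5, which carries the chymotrypsin-like site, was at 111, 87.3 and 101 CPM in controls and at 153, 88.5 and 129 CPM after knockdown. PSMB6, with the caspase-like site, was at 64.9, 50.7 and 62.6 CPM in controls and at 89.0, 56.5 and 93.7 CPM after knockdown. PSMB7 was at 275, 219 and 255 CPM in controls and at 344, 253 and 345 CPM after knockdown. In each of the 3, knockdown 1 and 3 exceeded every control and knockdown 2 lay within the controls' range. Log2 fold changes were 0.31 ± 0.21, 0.42 ± 0.21 and 0.33 ± 0.17 (SE), with edgeR adjusted p of 0.418, 0.341 and 0.341. With GC and length correction these were 0.10, 0.09 and 0.13, and without knockdown 1 PSMB5 was at 0.11.

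Of their inducible counterparts, 2 of 3 had knockdown 1 and 3 above every control. PSMB8, the counterpart of PSMB5, was at 101, 85.9 and 94.8 CPM in controls and at 140, 86.5 and 120 CPM after knockdown. PSMB10, the counterpart of PSMB7, was at 33.4, 30.6 and 36.0 CPM in controls and at 47.7, 32.4 and 50.5 CPM after knockdown. In both, knockdown 2 lay within the controls' range. PSMB9, the counterpart of PSMB6, was at 30.3, 26.4 and 38.3 CPM in controls and at 37.7, 29.3 and 42.2 CPM after knockdown, and only knockdown 3 exceeded every control. Log2 fold changes were 0.30, 0.39 and 0.20 for PSMB8, PSMB10 and PSMB9, and with GC and length correction they were -0.02, -0.05 and -0.14. Without knockdown 1 PSMB8 was at 0.13. PSMB8 and PSMB9 lie next to each other in the HLA region (chr6:32840717-32844703 and chr6:32844136-32859585) and share 139 exonic bases on opposite strands, so without stated strand use their reads there cannot be told apart.

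The balance between constitutive and inducible subunits was measured as the inducible gene's share of the pair's summed FPKM. PSMB8 made up 48.9 ± 1.14% of PSMB5 plus PSMB8 in controls and 48.4 ± 1.78% after knockdown (SD, n = 3). PSMB9 made up 36.7 ± 3.16% of its pair with PSMB6 in controls and 33.5 ± 2.30% after knockdown. PSMB10 made up 9.72 ± 0.733% of its pair with PSMB7 in controls and 9.98 ± 0.608% after knockdown. The ranges of the groups overlapped for all 3 pairs, so no difference beyond the spread was seen.

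**Figure D3:**
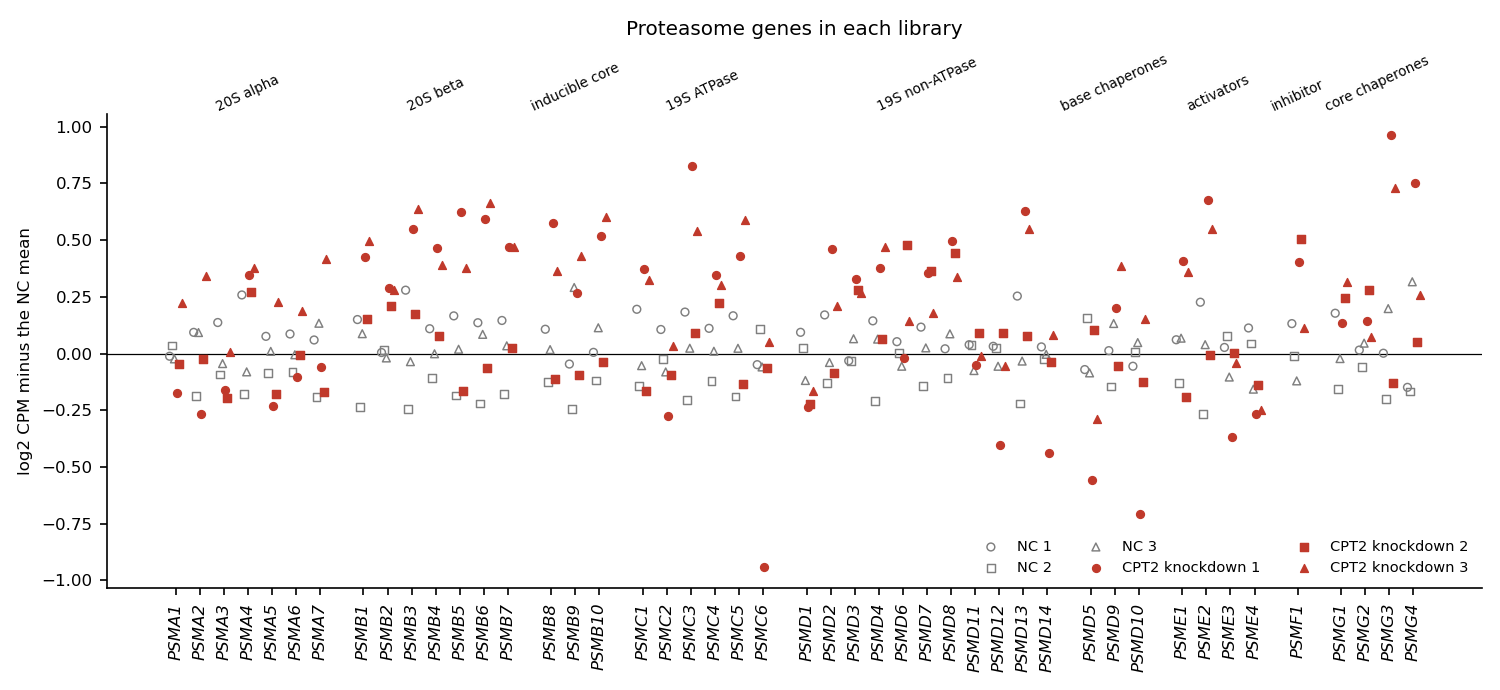
Log2 CPM of 46 proteasome genes minus the mean of the 3 NC libraries (vertical axis), by role, with NC libraries as open grey symbols and CPT2 knockdown libraries as filled red symbols. In the beta ring and inducible core genes knockdown 1 (circles) and 3 (triangles) mostly lie above the controls and knockdown 2 (squares) among them.

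In the 19S group, 13 of 20 genes had positive log2 fold changes, with a median of 0.20. For the 6 ATPases the median was 0.24 (4 positive), for the 11 non-ATPases 0.22 (8 positive), and for the 3 base assembly chaperones -0.19 (1 positive). The ATPase medians by library were 0.14, -0.13 and -0.02 in NC 1, 2 and 3 and 0.36, -0.08 and 0.31 in knockdown 1, 2 and 3, and knockdown 2 again lay within the controls' range. Non-ATPase medians were 0.05, -0.03 and -0.03 in controls and 0.33, 0.09 and 0.18 after knockdown, and here all knockdown libraries lay above all controls. Under scaling by library size alone the median of the 19S group was 0.05, against -0.13 for all genes.

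PSMC3, an ATPase at chr11:47418769-47426473, had the largest log2 fold change of the 19S group in the main test. It was at 328, 250 and 293 CPM in NC 1, 2 and 3 and at 513, 308 and 419 CPM in knockdown 1, 2 and 3. Knockdown 2 lay below NC 1, so the groups overlapped. The log2 fold change was 0.51 ± 0.20 (SE; edgeR unadjusted p = 0.0311, adjusted p = 0.338). It was 0.31 without knockdown 1 and 0.21 with GC and length correction, and in neither case the largest of the group. With the replicate number as a block it was 0.49 and passed narrowly (edgeR adjusted p = 0.0499). PSMC4 was at 93.2, 79.3 and 86.9 CPM in controls and at 109.5, 101 and 106 CPM after knockdown without overlap. PSMC5 was at 185, 145 and 168 CPM in controls and at 222, 151 and 248 CPM after knockdown with overlap. The ATPases PSMC4 and PSMC5 had log2 fold changes of 0.29 ± 0.14 and 0.32 ± 0.20 (SE), and of 0.04 and 0.15 with GC and length correction. PSMC5 shares 874 exonic bases with FTSJ3 on the opposite strand. PSMC6 is named here after its values were seen: it was at 35.1 CPM in knockdown 1 and between 64.4 and 72.6 CPM in the other libraries.

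PSMD8, a lid subunit at chr19:38374536-38383824, had the smallest p of all members. It was at 114, 104 and 120 CPM in NC 1, 2 and 3 and at 159, 153 and 142 CPM in knockdown 1, 2 and 3. Every knockdown library exceeded every control, knockdown 2 included. The log2 fold change was 0.42 ± 0.13 (SE), with a 95% interval of 0.12 to 0.72 (edgeR unadjusted p = 0.0111, adjusted p = 0.338). PSMD3, a lid scaffold subunit at chr17:39980797-39997960, was at 139, 138 and 148 CPM in controls and at 178, 172 and 171 CPM after knockdown. These groups did not overlap either, and the log2 fold change was 0.29 ± 0.12 (SE; edgeR unadjusted p = 0.0427, adjusted p = 0.338). PSMD13, also of the lid, was at 101, 72.8 and 82.8 CPM in controls and at 131, 89.5 and 124 CPM after knockdown. Knockdown 2 lay below NC 1, and the log2 fold change was 0.43 ± 0.19 (SE). PSMD13 shares 316 exonic bases with SIRT3 on the opposite strand. With GC and length correction the log2 fold changes of PSMD8, PSMD3 and PSMD13 were 0.12, 0.02 and 0.28. PSMD1, named after its values were seen, was the gene with all knockdown libraries (64.8 to 68.2 CPM) below all controls (70.3 to 81.5 CPM). Its log2 fold change of -0.21 ± 0.14 (SE) was 0.07 with GC and length correction.

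The base assembly chaperones PSMD5, PSMD9 and PSMD10 escort ATPases into the particle and leave it once it is built. PSMD5 was at 86.3, 101 and 85.4 CPM in NC 1, 2 and 3 and at 61.6, 97.3 and 74.1 CPM in knockdown 1, 2 and 3. PSMD10 was at 56.0, 58.6 and 60.2 CPM in controls and at 35.6, 53.4 and 64.6 CPM after knockdown. For both, knockdown 1 was the lowest library and another knockdown library lay in or above the controls' range. PSMD5 had a log2 fold change of -0.23 ± 0.19 and PSMD10 of -0.19 ± 0.22 (SE). Without knockdown 1 that of PSMD10 was 0.01 and that of PSMD5 -0.09, and with GC and length correction that of PSMD5 was 0.11. PSMD9 was at 40.6, 36.4 and 44.1 CPM in controls and at 46.3, 38.7 and 52.6 CPM after knockdown, with overlap and a log2 fold change of 0.18 ± 0.17 (SE). PSMD9 shares 436 exonic bases with WDR66 on the same strand, where the authors' counting could divide reads.

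The activators held 2 genes with positive and 2 with negative values, and their median log2 fold change was 0.04. The median was -0.09 under scaling by library size alone and -0.06 on log2(FPKM + 1), where all genes had medians of -0.13 and -0.07. PSME1 and PSME2, the interferon-inducible subunits of the 11S cap, were the positive pair. PSME1 was at 110, 96.1 and 110 CPM in NC 1, 2 and 3 and at 140, 92.1 and 135 CPM in knockdown 1, 2 and 3. PSME2 was at 108, 76.8 and 94.9 CPM in controls and at 148, 92.0 and 135 CPM after knockdown. In both, knockdown 1 and 3 exceeded the controls and knockdown 2 did not, as in the catalytic core subunits. The log2 fold change was 0.21 ± 0.18 for PSME1 and 0.42 ± 0.21 for PSME2 (SE), with edgeR adjusted p of 0.501 and 0.340, and with GC and length correction these were -0.05 and 0.06. Without knockdown 1 they were 0.10 and 0.27. PSME2 shares 216 exonic bases with RNF31 on the opposite strand.

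PSME3, the nuclear 11S cap subunit, was at 154, 159 and 140 CPM in controls and at 117, 151 and 147 CPM after knockdown. Its groups overlapped, and the log2 fold change was -0.13 ± 0.15 (SE), or -0.33 with GC and length correction. PSME3 shares 300 exonic bases with BECN1 on the opposite strand. PSME4, which encodes the single-chain cap PA200, was at 152, 145 and 126 CPM in controls and at 117, 128 and 118 CPM after knockdown. Knockdown 2 lay just above NC 3, and the log2 fold change of -0.22 ± 0.14 (SE) was 0.24 with GC and length correction.

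PSMF1 and the core assembly chaperones all had positive log2 fold changes, 5 of 5 with a median of 0.35. PSMF1, an inhibitor of the core, was at 42.3, 38.3 and 35.5 CPM in NC 1, 2 and 3 and at 51.1, 54.7 and 41.7 CPM in knockdown 1, 2 and 3. Knockdown 3 lay just below NC 1. The log2 fold change came to 0.35 ± 0.17 (SE; edgeR adjusted p = 0.339), and 0.56 with GC and length correction. With that correction and the replicate number as a block it was 0.55 and passed (edgeR adjusted p = 0.01). PSMG3, which helps build the alpha ring, was at 63.3, 55.1 and 72.5 CPM in controls and at 123, 57.7 and 105 CPM after knockdown. Knockdown 1 and 3 exceeded every control and knockdown 2 did not, and the log2 fold change came to 0.58 ± 0.26 (SE; edgeR adjusted p = 0.338). It was 0.34 without knockdown 1 and 0.16 with GC and length correction. PSMG1, another of these chaperones, was at 51.2, 40.6 and 44.5 CPM in controls and at 49.6, 53.6 and 56.3 CPM after knockdown, with overlap and a log2 fold change of 0.23. PSMG4 was at 13.4, 13.2 and 18.5 CPM in controls and at 25.1, 15.4 and 17.7 CPM after knockdown, with overlap and a log2 fold change of 0.37 (0.13 without knockdown 1 and 0.04 with GC and length correction). PSMG4 shares 1388 exonic bases with SLC22A23 on the opposite strand. PSMC3IP, which only shares the name prefix, was at 20.4, 21.3 and 21.8 CPM in controls and at 23.1, 22.9 and 22.1 CPM after knockdown, with a log2 fold change of 0.10. It shares 770 exonic bases on the opposite strand with MLX, which had more counts in every library.

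Fold changes of the proteasome genes ordered with base composition, as did those of all genes. Across 46 members the Spearman correlation of log2 fold change with the GC content of the principal transcript was 0.73, and across 13207 genes with a value it was 0.69. Genes share the same 6 libraries, so this is a description and has no p. Of the 23 members with less than 50% GC, 13 had positive values and the median was 0.01, where 1399 of 6670 such genes overall were positive with a median of -0.26. Of the 23 members at or above 50% GC, 22 were positive with a median of 0.31, where 5070 of 6537 genes overall were positive with a median of 0.26. By library, these members had medians of 0.46, -0.01 and 0.39 in knockdown 1, 2 and 3. The 6537 genes had 0.47, 0.03 and 0.24 there and 0.06, -0.09 and 0.04 in NC 1, 2 and 3. Thus knockdown 1 and 3 lay above the controls and knockdown 2 among them for GC-rich genes in general. The alpha ring genes had a median GC content of 42.1%, the beta ring genes 51.8% and the inducible core genes 56.1%. Without knockdown 1 the correlation was 0.63 for members and 0.49 for all genes.

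**Figure D4:**
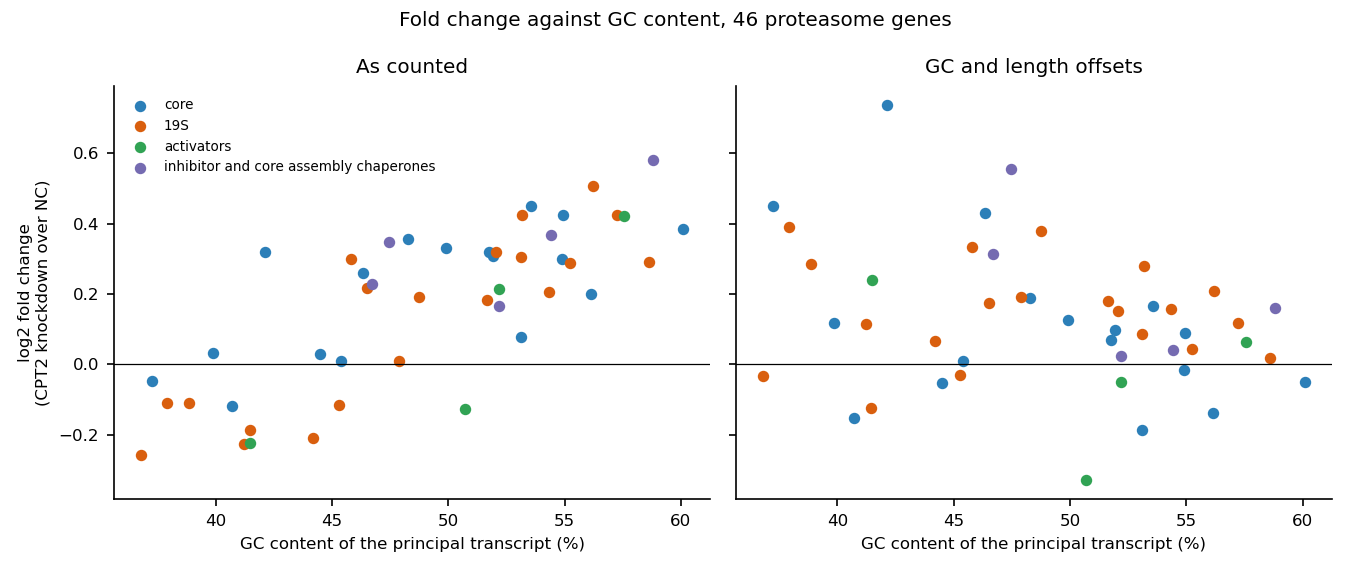
Log2 fold change (CPT2 knockdown over NC, vertical axis) of 46 proteasome genes against the GC content of their principal transcript in percent, as counted (left) and with GC and length offsets (right), coloured by class. On the left values climb with GC content (Spearman 0.73), and on the right they lean the other way (-0.24).

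With offsets that removed the trend of each library on GC content and length, 35 of 47 members had positive values, where 52.4% of all genes did, and the median over 46 was 0.12. The core median was then 0.09, the beta ring 0.13, the alpha ring 0.01, the inducible core genes -0.05, the 19S group 0.16 and the activators 0.01. By library, the beta ring was at 0.07, -0.08 and 0.00 in NC 1, 2 and 3 and at 0.16, 0.04 and 0.28 in knockdown 1, 2 and 3, and the non-ATPases were at 0.33, 0.10 and 0.13 in knockdown libraries, all above the controls. No member passed (edgeR, with 6 of 47 at an unadjusted p under 0.05, beside 1598 of all 13207 genes in that fit). Offsets from the longest transcript in place of the principal one gave an alpha ring median of 0.40 and a beta ring median of 0.18, so the order of the rings depended on the transcript chosen. Across 46 members the Spearman correlation of log2 fold change with GC content was -0.24 with principal and -0.42 with longest transcripts. Among the members the offsets thus left a trend of opposite sign.

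**Figure D5:**
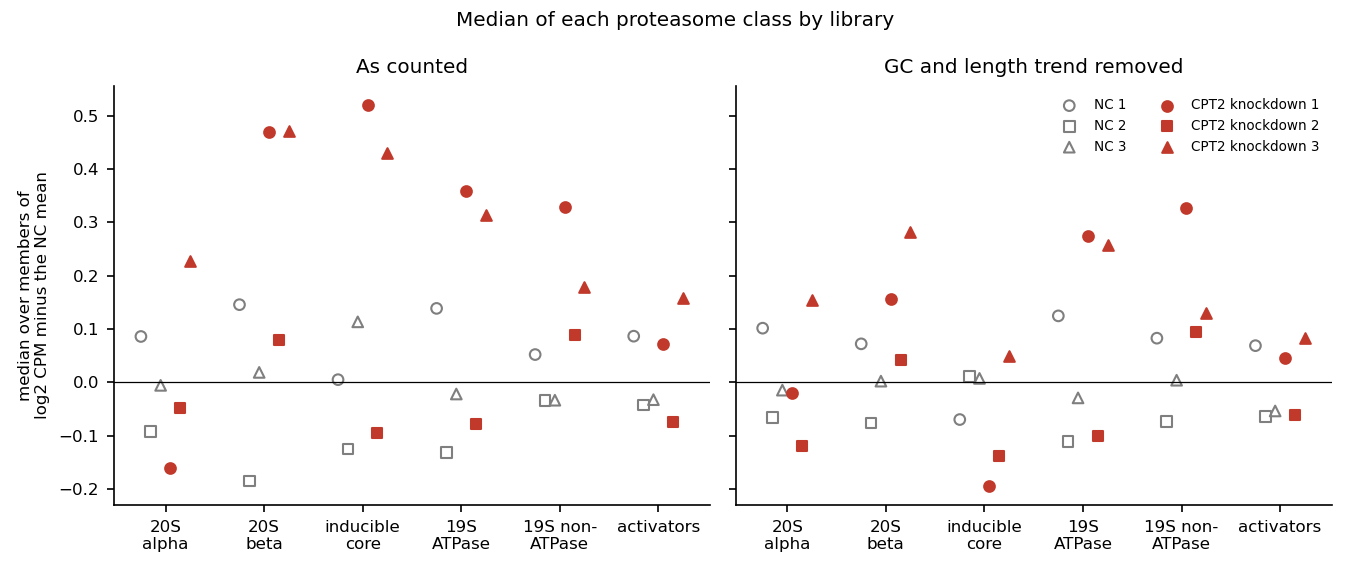
Median over the genes of each class of log2 CPM minus the NC mean (vertical axis), 1 symbol per library, as counted (left) and with the trend on GC and length taken out (right). On the left the beta ring is at 0.47 in knockdown 1 and 3 and 0.08 in knockdown 2, and on the right at 0.16, 0.28 and 0.04.

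Members with and without the antioxidant response element core had like values. The 15 genes with a match had a median log2 fold change of 0.21 (11 positive, 4 negative), and the 25 tested genes without one had a median of 0.21 (18 positive, 7 negative). The 6 genes not matched to a window had a median of 0.34 (6 positive). These are values as counted, which ordered with GC content, and the part of the element was not tested. NFE2L1, the factor that acts through these elements, was at 196, 188 and 198 CPM in NC 1, 2 and 3 and at 250, 205 and 197 CPM in knockdown 1, 2 and 3. Knockdown 1 and 2 lay above the controls and knockdown 3 within them, and the log2 fold change was 0.16 ± 0.14 (SE). DDI2, the protease that releases NFE2L1 in active form, was at 56.1, 60.8 and 55.2 CPM in controls and at 33.0, 47.3 and 42.9 CPM after knockdown. Its knockdown libraries lay below all controls, but the log2 fold change of -0.48 ± 0.18 (SE) did not pass (edgeR adjusted p = 0.338) and was -0.05 with GC and length correction.

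Of 42 other genes of the pathway, chosen by role, 23 had positive and 19 negative values, the median log2 fold change being 0.06, and 0 of 42 passed by the edgeR adjusted p. An unadjusted p under 0.05 was reached by 5 with positive and 4 with negative values, beside 9.18% and 5.29% of all genes tested. ADRM1, the 19S ubiquitin receptor outside the PSM naming, was at 135, 115 and 144 CPM in NC 1, 2 and 3 and at 214, 169 and 198 CPM in knockdown 1, 2 and 3. Every knockdown library exceeded every control (log2 fold change 0.56 ± 0.15, SE; edgeR adjusted p = 0.338), and with GC and length correction the value was 0.06. UBB, a polyubiquitin gene, was at 555, 460 and 505 CPM in controls and at 790, 691 and 649 CPM after knockdown without overlap, with a log2 fold change of 0.49 ± 0.14 (SE) and of 0.29 with that correction. Its coding repeats are near-identical, so the assignment of its reads is uncertain. TAPBP, a chaperone of peptide loading, was at 261, 217 and 244 CPM in controls and at 393, 280 and 285 CPM after knockdown without overlap. Its log2 fold change was 0.41, or 0.07 with GC and length correction. On the negative side, UBE3C, a ubiquitin ligase bound to the proteasome, was at 117, 141 and 126 CPM in controls and at 73.4, 103 and 99.9 CPM after knockdown. The transcription factor STAT3 was at 173, 188 and 163 CPM in controls and at 128, 151 and 140 CPM after knockdown. The E1 enzyme UBA6 was at 41.1, 58.6 and 50.5 CPM in controls and at 13.8, 39.9 and 32.4 CPM after knockdown. In these 3 all knockdown libraries lay below all controls, and the log2 fold changes of UBE3C, STAT3 and UBA6 were -0.47, -0.33 and -0.80, or -0.24, -0.19 and -0.34 with GC and length correction. POMP, which matures the core, was at 57.6, 45.9 and 55.2 CPM in controls and at 62.0, 42.1 and 62.1 CPM after knockdown. SEM1, the smallest 19S subunit, was at 50.5, 33.8 and 46.9 CPM in controls and at 65.1, 31.2 and 48.6 CPM after knockdown. Both overlapped, and the log2 fold changes of POMP and SEM1 were 0.07 and 0.14.

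In the authors' deposited table, all 47 detected members were marked as normal, that is neither up nor down, where 4.15% of its genes with a p were called. Its lowest p among members was 0.00356, for PSMD8, and 7 of 47 had a p under 0.05. The share of all genes with such a p in that table was not counted. In the DESeq2 fit made here, 6 of 47 members and 2805 of 15302 genes had an unadjusted p under 0.05, so these counts are not read as a result about the members. Summed over all members but PSMC3IP, the proteasome took 5608, 4853 and 5235 CPM in NC 1, 2 and 3 and 6257, 5371 and 6465 CPM in knockdown 1, 2 and 3. On this scale knockdown 1 and 3 lay above the controls and knockdown 2 within them. As a share of all counts knockdown 1 (0.550%) lay within the controls' range, so its position turned on the scaling.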

How the data were processed

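The data were poly(A) RNA-seq of 3 NC and 3 CPT2 knockdown samples. Per the file headers, the table deposited by the authors holds raw counts per gene, without normalization, and FPKM from gene models that the headers do not name. The same deposited table holds the authors' p-values, log2 fold changes and calls from their own comparison. HISAT2, TopHat2, Bowtie2, StringTie, DESeq2, edgeR and GRCh38 are named in the submitters' processing notes, with roles not given in the sources used here. After 17 stray lines were left out, 24154 genes remained, of which 19974 had an Ensembl ID that matched GENCODE 29 and 4180 were loci without a symbol, with 5.32% to 7.18% of the counts. Counts were fitted in R 4.3.3 with edgeR 4.0.16 (filterByExpr, 15302 genes; TMM; robust quasi-likelihood F-test; Benjamini-Hochberg threshold 0.05 over all genes). Total counts were 28353790 to 29449380 per library. CPM used each library's total over the 15302 genes kept, times the TMM factor, and log2 CPM a prior count of 2. Library pairs differed by 17.2 to 35.0 chi-square units per gene within the NC group and by 102 to 156 within the knockdown group. Both are more than counting noise, so all were kept, and the knockdown libraries differed more among themselves. DESeq2 1.42.0, limma 3.58.1 (voom, and trend on log2(FPKM + 1) and log2(FPKM + 0.1)), other scalings and filters, leaving out each library, the replicate number as a block, and GC and length offsets (loess, span 0.3, principal transcript) were alternatives. The choice of the principal transcript was made after the data were seen. The fit was also run on simulated data with 200 changed genes, which held no GC trend and no outlying library. That run does not test the fit under these features of the data. Members and gene lists were chosen with earlier results of these data known. Values in every library were given for the up to 3 genes with the smallest p in each role, catalytic and inducible subunits, activators, PSMF1, and the highest and lowest core and 19S genes by FPKM; of the pathway list, for genes with an unadjusted p under 0.05 and NFE2L1, POMP, ADRM1 and SEM1, apart from genes that are not reported here. Strand use in counting was not given in the sources used here.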

Additional observations from a re-analysis of the deposited data

How the results depend on the processing

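The main test called 2 genes of all tested and no proteasome gene. Of all genes, DESeq2 called 17, limma-voom 1, a stricter filter on low counts 1, an adjusted p under 0.01 in place of 0.05 1, and limma-trend on log2(FPKM + 1) and log2(FPKM + 0.1) 0 each (2055 and 1932 at an unadjusted p under 0.05), and leaving out 1 library gave 1 to 5. GC and length offsets without knockdown 1 gave 4. With the replicate number as a block, 633 genes of 15302 were called, among them PSMC3 (0.49, edgeR adjusted p = 0.0499). With the block and GC and length offsets together 613 of 13207 were called, among them 5 members, PSMA4, PSMA5, PSMB2, PSMD12 and PSMF1, named here after their values were seen. PSMA5 and PSMD12 changed sign there and passed, at 0.41 and 0.38 (edgeR adjusted p = 0.0301 and 0.0238), where the main test gave -0.05 and -0.11. Deviations of same-numbered samples correlated at 0.25, 0.36 and 0.0065. The first 2 values were the highest for those samples, but NC 3 correlated best with knockdown 1 (0.091). These values do not settle whether the samples were paired. The labels state no pairing, so the main test had no block, and the number of genes called depended on that choice. Median log2 fold changes under the GC and length offsets, these with the block, and these without knockdown 1 were 0.09, 0.08 and 0.09 in the core. The beta ring had 0.13 under the offsets and 0.12 with the block too. The alpha ring had 0.40 under offsets from the longest transcripts, an alternative chosen after the data were seen. Under library size alone, log2(FPKM + 1) and log2(FPKM + 0.1), which put the median of all genes at -0.13, -0.07 and -0.12, the 19S median was 0.05, 0.06 and 0.06 and the activator median -0.09, -0.06 and -0.06.

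Of the 42 genes named by rule, which leave out PSMA5, PSMD1 and PSMD12, 53 values changed sign under 19 alternatives, none of them past the threshold. With GC and length offsets these were PSMA7 -0.19, PSMB8 -0.02, PSMB9 -0.14, PSMB10 -0.05, PSMC3IP -0.01, PSMD5 0.11, PSME1 -0.05 and PSME4 0.24, and with the block added PSMA7 -0.21, PSMB8 -0.02, PSMB9 -0.14, PSMB10 -0.06, PSMC3IP -0.01, PSMD5 0.11, PSME1 -0.05 and PSME4 0.22. With the longest transcripts they were PSMA7 -0.25, PSMB10 -0.07, PSMC3IP -0.07, PSMD5 0.06, PSME1 -0.08 and PSME4 0.21. With offsets and without knockdown 1 they were PSMA7 -0.03, PSMB5 -0.01, PSMB8 -0.05, PSMB9 -0.03, PSMC3IP -0.01, PSMD5 0.05, PSME1 -0.06, PSME4 0.02, PSMG4 -0.03, POMP -0.08 and SEM1 -0.19. Under library size alone PSMA7 was -0.05, PSMC3IP -0.04, POMP -0.08 and SEM1 -0.01, and under both FPKM fits PSMA7 was -0.07, PSMC3IP -0.03, POMP -0.07 and -0.08, and SEM1 -0.03. Without knockdown 1 POMP was -0.03, SEM1 -0.14 and PSMD10 0.01, without knockdown 3 PSMA7 was -0.12 and POMP -0.02, and without NC 2 PSMA7 was -0.01, POMP -0.03 and SEM1 -0.01. Leaving out 1 library at a time gave -0.12 to 0.19 for PSMA7, -0.39 to 0.01 for PSMD10, -0.03 to 0.23 for POMP and -0.14 to 0.38 for SEM1. The cause was not tested. With 3 libraries a group, log2 changes of the size seen here had intervals that mostly crossed 0.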
